A study of Mus musculus with 6 samples.

Results

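CXC chemokines are small secreted proteins, and 10 of their genes (Cxcl1, Cxcl2, Cxcl3, Cxcl5, Cxcl9, Cxcl10, Cxcl11, Cxcl12, Cxcl14 and Cxcl16) were followed here among the 18182 genes of the files, chosen by gene symbol. The RNA came from Lewis lung carcinoma (LLC), an established C57BL/6 cancer line, whose cells carried red fluorescent protein (LLC-RFP) and were sorted by flow cytometry from subcutaneous tumours of wild type C57BL/6 mice. In 3 libraries the mice had received LLC-RFP alone (LLC alone), and in 3 libraries LLC-RFP together with bone marrow-derived mesenchymal stem cells (LLC with BMSCs). The BMSCs were purchased cells from C57BL/6 mice, both groups used the same single cancer line, and the study's methods give an age for the mice of its luciferase-labelled allografts but none for the mice sequenced here. No source used here says whether each library came from a separate mouse. The p-values therefore measure the spread between these libraries, which may be technical. In RNA from bulk sorted cells, fewer cells of a type and less RNA per cell cannot be told apart.

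CXC chemokines carry a pair of cysteines separated by a single residue and guide leukocytes along concentration gradients through G protein-coupled receptors. Cxcl1, Cxcl2, Cxcl3 and Cxcl5 hold a glutamate-leucine-arginine (ELR) stretch before the cysteines, bind Cxcr2, attract neutrophils and promote vessel growth, and NF-kB is a known activator of their genes. Cxcl9, Cxcl10 and Cxcl11 lack that stretch, are classical interferon-induced genes and attract activated T cells and NK cells through Cxcr3. Cxcl12 binds Cxcr4 and the scavenging receptor Ackr3, Cxcl14 is a largely homeostatic chemokine of epithelia, and Cxcl16 is made as a membrane-bound protein that binds Cxcr6 and can be shed by proteases.

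Of the 10 genes, 7 lie on chromosome 5 in the mouse annotation (GRCm38), in clusters that follow the functional classes. Cxcl5 (90759360 to 90761624), Cxcl3 (90786103 to 90789600), Cxcl1 (90891241 to 90893115) and Cxcl2 (90903871 to 90905938) are read from the plus strand. Cxcl9 (92321347 to 92328079), Cxcl10 (92346638 to 92348889) and Cxcl11 (92359544 to 92365485) are neighbours on the minus strand. The other members lie elsewhere, with Cxcl12 on chromosome 6 (117168535 to 117181367, plus strand), Cxcl14 on chromosome 13 (56288643 to 56296551, minus strand) and Cxcl16 on chromosome 11 (70453983 to 70459984, minus strand).

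The bases just upstream of the transcription start are shown for 3 ELR genes and for Cxcl9 and Cxcl10, because the known activators of the classes differ. The choice was made with the changes of these genes known. The sequences are those of RefSeq on build GRCm38.p6, from a table that held 7 of the 10 members and did not hold Cxcl5, Cxcl11 or Cxcl16. Each is written 5′ to 3′ on the strand of its gene and ends at the base before the start in RefSeq. For Cxcl1, Cxcl2 and Cxcl3 that start differs from the gene position given above, and the stretches of Cxcl1 and Cxcl2 run into the annotated gene. The stretches are chr5:90891125-90891244 (plus strand) for Cxcl1, chr5:90903779-90903898 (plus strand) for Cxcl2, chr5:90785981-90786100 (plus strand) for Cxcl3, chr5:92328080-92328329 (minus strand) for Cxcl9 and chr5:92348890-92349139 (minus strand) for Cxcl10. Capitals mark matches to the kappaB consensus or to the interferon-stimulated response element (ISRE, searched as GAAA, any 2 bases and GAAA again).
Cxcl1: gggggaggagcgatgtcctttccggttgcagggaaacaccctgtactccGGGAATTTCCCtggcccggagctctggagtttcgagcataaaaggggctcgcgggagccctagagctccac
Cxcl2: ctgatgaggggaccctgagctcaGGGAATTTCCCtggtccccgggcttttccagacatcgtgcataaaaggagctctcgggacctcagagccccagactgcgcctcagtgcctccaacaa
Cxcl3: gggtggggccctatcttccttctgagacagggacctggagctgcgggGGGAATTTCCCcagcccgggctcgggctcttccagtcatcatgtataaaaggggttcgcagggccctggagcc
Cxcl9: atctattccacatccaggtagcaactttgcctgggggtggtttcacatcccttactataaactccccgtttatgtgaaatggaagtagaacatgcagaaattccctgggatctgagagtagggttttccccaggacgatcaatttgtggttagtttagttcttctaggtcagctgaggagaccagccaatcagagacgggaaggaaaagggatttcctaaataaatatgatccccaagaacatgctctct
Cxcl10: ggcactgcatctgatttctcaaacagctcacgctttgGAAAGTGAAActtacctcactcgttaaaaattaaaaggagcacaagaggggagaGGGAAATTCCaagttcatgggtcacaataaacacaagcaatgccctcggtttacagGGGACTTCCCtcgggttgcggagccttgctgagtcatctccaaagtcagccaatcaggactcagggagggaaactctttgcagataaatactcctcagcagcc

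Both strands of the 250 bases before the RefSeq start were searched for the kappaB consensus, the ISRE and the interferon-gamma activated site (GAS, TTCNNNGAA). Positions below are counted from that start. A kappaB match was present in 4 of the 7 members with a window, compared to 3.9% of the 32851 windows of all genes. Cxcl1, Cxcl2 and Cxcl3 each held the same kappaB match, which reads on both strands in overlapping frames, at 71 to 62, 97 to 88 and 73 to 64 bases before the start on the plus strand. Cxcl10 held kappaB matches at 159 to 150 and 103 to 94 bases and an ISRE match at 213 to 204 bases before the start. An ISRE match was present in 2.98% and a GAS match in 7.02% of all windows. The Cxcl14 window held a GAS match at 191 to 183 bases and an ISRE match at 172 to 163 bases before the start, and the windows of Cxcl9 and Cxcl12 held none of the 3 motifs in these spellings. A match describes the letters of the window, and no binding was measured. Of the genes with a kappaB match, Cxcl3 and Cxcl10 were called higher below, and Cxcl1 and Cxcl2 were not called. Cxcl9 holds no match and was called higher. Any link of the matches to the changes was not tested.

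The libraries held 33476347 to 46189113 estimated counts on genes, and 13353 genes passed edgeR's filter on low counts, among them 8 members (all but Cxcl12 and Cxcl14). The groups were far apart over all genes: 31.5% of the tested genes were called higher and 31.3% lower in LLC with BMSCs by edgeR's quasi-likelihood test at a Benjamini-Hochberg adjusted p of 0.05, 62.9% in either direction. LLC alone replicate 3 stood apart from replicates 1 and 2, with a median squared difference per gene of 13.1 and 12.4 times the counting error, compared to 1.96 times between replicates 1 and 2. With the tested genes divided into 5 bins by length, the median gene of the shortest bin in that library lay at 0.31, and that of the longest bin at -0.37, from the mean of all libraries on the log2 scale, whereas the shortest bin in LLC with BMSCs lay at -0.19 to -0.09. Cxcl1, Cxcl2, Cxcl3 and Cxcl10 belong to the shortest bin, and the values without this library and with the length trend removed are therefore given where they change a call. The share of this trend in the changes was not tested.

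Of the 8 tested CXC chemokines, 6 were upregulated in LLC with BMSCs (Cxcl3, Cxcl5, Cxcl9, Cxcl10, Cxcl11 and Cxcl16), 0 were downregulated, and Cxcl1 and Cxcl2 did not pass the test. The shares over all tested genes were 31.5% higher and 31.3% lower. Cxcl9 and Cxcl11 passed the filter on low counts only through LLC with BMSCs, so a call of lower was not open to them. With at least 10 counts required in every library, 6 members were tested and 4 were called higher. The median log2 fold change of the 8 was 0.90, compared to 0.01 over all tested genes. The same 6 had FPKM ranges above those of LLC alone with no overlap, a pattern seen in 37% of all tested genes (33.7% for the opposite order). At an adjusted p of 0.001 and an absolute log2 fold change of 1, 3 members were called higher (Cxcl9, Cxcl10 and Cxcl11), compared to 6.81% of all tested genes, and 0 lower, compared to 5.41%. FPKM, in which fragments are divided by the length of the transcript and the size of the library, was used for levels, and fold changes were fitted on the estimated counts.

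**Figure D1:**
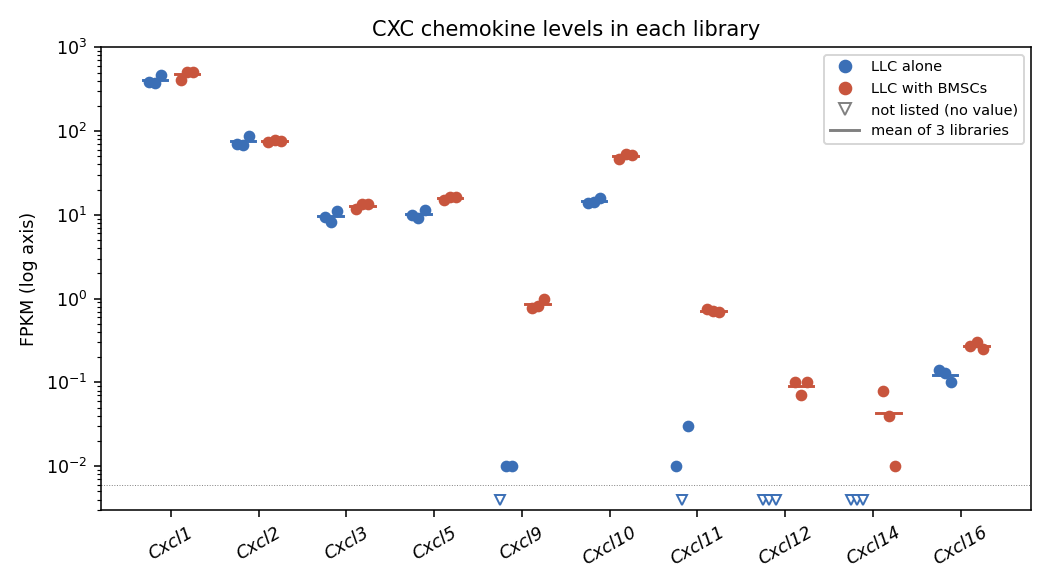
FPKM (log axis) of the 10 CXC chemokines in each of the 3 LLC alone libraries (blue) and the 3 LLC with BMSCs libraries (red), with the mean of each group as a bar and libraries that list no value as open triangles below the dotted line. Cxcl1 and Cxcl2 overlapped between the groups, Cxcl10 rose from 13.7–16.0 to 46.8–53.1 FPKM, and Cxcl12 and Cxcl14 were listed only in LLC with BMSCs.

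The ELR chemokines dominated in both groups. Cxcl1, a main neutrophil attractant of the mouse, had 389, 379 and 471 FPKM in LLC alone replicates 1 to 3 and 411, 508 and 512 FPKM in LLC with BMSCs replicates 1 to 3, which overlapped. Its mean was 413 ± 50.4 FPKM (SD, n = 3) compared to 477 ± 57.2 FPKM (SD, n = 3), and its log2 fold change of 0.18 (SE 0.11, 95% interval -0.08 to 0.45, edgeR adjusted p = 0.191) did not pass the test. This call turned on 1 library: without LLC alone replicate 3 the log2 fold change of Cxcl1 was 0.30 (edgeR adjusted p = 0.0162), and with the length trend removed it was 0.39 (edgeR adjusted p = 0.000367).

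Cxcl2, which acts on the same receptor, had 70.4, 68.4 and 88.1 FPKM in LLC alone and 73.6, 77.4 and 75.8 FPKM in LLC with BMSCs. The LLC with BMSCs libraries all lay inside the range of LLC alone, and LLC alone replicate 3 was the highest of the 6. The group means were 75.6 ± 10.8 and 75.6 ± 1.90 FPKM (SD, n = 3 each), with a log2 fold change of -0.02 (SE 0.10, 95% interval -0.26 to 0.21, edgeR adjusted p = 0.855). The direction was not stable, since it was 0.11 without LLC alone replicate 3 (edgeR adjusted p = 0.0617) and 0.17 with the length trend removed (edgeR adjusted p = 0.0111).

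Cxcl3 and Cxcl5 were expressed at similar levels in LLC alone, and both rose. Cxcl3 had 9.53, 8.21 and 11.0 FPKM in LLC alone and 11.9, 13.5 and 13.5 FPKM in LLC with BMSCs. Every LLC with BMSCs library lay above every LLC alone library, although LLC alone replicate 3 (11.03 FPKM) and LLC with BMSCs replicate 1 (11.88 FPKM) were close. The mean went from 9.59 ± 1.41 to 12.9 ± 0.918 FPKM (SD, n = 3 each), and the log2 fold change was 0.41 (SE 0.12, 95% interval 0.13 to 0.68, edgeR adjusted p = 0.0178). This was the weakest of the calls, and it did not pass without LLC alone replicate 1 (edgeR adjusted p = 0.0515), without LLC with BMSCs replicate 2 (0.0590) or without LLC with BMSCs replicate 3 (0.0614).

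Cxcl5, the ELR chemokine best known from epithelial cells, had 9.86, 9.20 and 11.5 FPKM in LLC alone and 15.1, 16.5 and 16.3 FPKM in LLC with BMSCs. The groups did not overlap, and the gap between them was wider than the spread within either. Its mean went from 10.2 ± 1.16 to 15.9 ± 0.747 FPKM (SD, n = 3 each), with a log2 fold change of 0.63 (SE 0.091, 95% interval 0.41 to 0.84, edgeR adjusted p = 0.000649). Of all tested genes, 15.5% had a larger log2 fold change than Cxcl5 and 24.3% a larger one than Cxcl3.

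Among the interferon-induced chemokines, Cxcl10 was the abundant one. Cxcl10 had 13.7, 14.1 and 16.0 FPKM in LLC alone and 46.8, 53.1 and 52.2 FPKM in LLC with BMSCs, with no overlap. Its mean went from 14.6 ± 1.21 to 50.7 ± 3.41 FPKM (SD, n = 3 each), which is a 3.42-fold rise (log2 fold change 1.77, SE 0.082, 95% interval 1.58 to 1.96, edgeR adjusted p = 2.13e-06). In all tested genes, 4.56% had a larger log2 fold change than Cxcl10. The Cxcl10 locus shares exon bases with Art3 on the opposite strand, and whether the counting used strand is not stated, but Art3 had only 1 to 15 counts in a library, compared to 495 to 2452 for Cxcl10.

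Cxcl9 and Cxcl11 were at the limit of detection in LLC alone and were measured in every LLC with BMSCs library. Cxcl9 had estimated counts of 0, 1 and 1 in LLC alone and 97, 101 and 124 in LLC with BMSCs, or at most 0.01 FPKM compared to 0.77, 0.81 and 1 FPKM. Against a floor of 3 counts per library, which covers counting error only, Cxcl9 was at least 32.8-fold higher (edgeR adjusted p = 4.92e-06). Cxcl11 had 0 to 2 counts in LLC alone and 46 to 52 in LLC with BMSCs, or at most 0.03 FPKM compared to 0.69 to 0.76 FPKM. By the same floor Cxcl11 was at least 14.9-fold higher (edgeR adjusted p = 2.01e-05). Cxcl11 shares exon bases with Gm2673 on the opposite strand. No counts were listed for Gm2673 and use of strand is not stated, so its part in the Cxcl11 counts could not be checked. The annotation classes mouse Cxcl11 as a polymorphic pseudogene, since some strains, C57BL/6 included, carry a disrupted reading frame, so that its transcript level says nothing of a protein.

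Cxcl16 was low in both groups and rose. It had 10 to 15 counts in LLC alone (0.10 to 0.14 FPKM) and 25.8 to 31.8 counts in LLC with BMSCs (0.25 to 0.30 FPKM), and the groups did not overlap. Its log2 fold change was 1.17 (SE 0.22, 95% interval 0.66 to 1.68, edgeR adjusted p = 0.00223), or 2.25-fold. Cxcl16 shares exon bases with Zmynd15 on the opposite strand, which had 0 to 4 counts in LLC alone and 7.2 to 9.22 in LLC with BMSCs, and the counts of Cxcl16 were not whole numbers in the 3 LLC with BMSCs libraries, so reads there were divided and the value is uncertain.

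Cxcl12 and Cxcl14 were not listed in any LLC alone library and were too low to be tested. Cxcl12, the chemokine through which marrow stroma retains blood-forming cells, had 7 to 12 counts in LLC with BMSCs (0.07 to 0.10 FPKM), at least 2.75-fold higher when LLC alone is set at the floor. Cxcl14 had 1 to 6 counts (0.01 to 0.08 FPKM), and no fold is given because 2 of its 3 libraries were at or under the floor. When the filter on low counts was left out, Cxcl12 passed edgeR's test (adjusted p = 0.00238) and so did Cxcl14 (adjusted p = 0.0416), while DESeq2 called Cxcl12 (adjusted p = 0.000504) and not Cxcl14 (adjusted p = 0.0677). At this depth a count of 0 allows up to 3 counts per library, so neither gene can be called absent from LLC alone. The counts of Cxcl12 were divided among 3 annotated transcripts. The shortest (1878 bases) took a mean of 72.0% ± 17.7 (SD, n = 3) of the gene's FPKM in LLC with BMSCs, or 60.5% of its estimated counts. Its share of the FPKM was 54.5%, 71.4% and 90.0% in replicates 1 to 3. These shares rest on 4.55, 4 and 6.92 estimated counts, too few to name a preferred transcript.

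**Figure D2:**
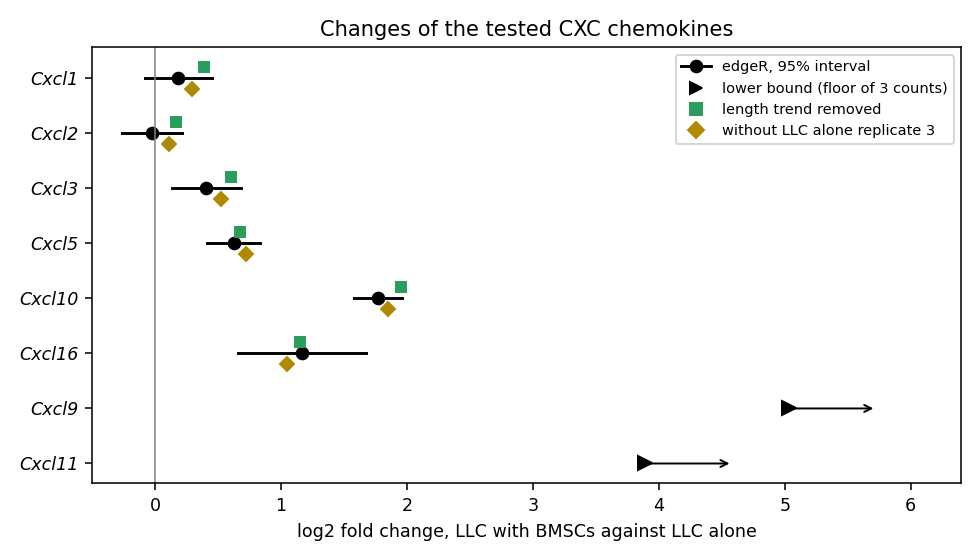
Log2 fold change of the 8 tested CXC chemokines, LLC with BMSCs against LLC alone, with 95% intervals (black points and lines), lower bounds against a floor of 3 counts for Cxcl9 and Cxcl11 (triangles with arrows), and the values with the length trend removed (green) and without LLC alone replicate 3 (gold). The intervals of Cxcl1 and Cxcl2 include 0, Cxcl10 stands at 1.77, and Cxcl9 and Cxcl11 lie at or beyond 5.03 and 3.89.

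The order of levels changed little. In LLC alone the order by mean FPKM was Cxcl1, Cxcl2, Cxcl10, Cxcl5, Cxcl3 and Cxcl16, with Cxcl11, Cxcl9, Cxcl12 and Cxcl14 at or near 0. Cxcl5 and Cxcl3 overlapped there, as did the 4 lowest genes. In LLC with BMSCs the first 5 places were the same and Cxcl5 no longer overlapped Cxcl3, while Cxcl9 and Cxcl11 stood above Cxcl16, and only the lowest pair, Cxcl12 and Cxcl14, overlapped.

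Among the CXC chemokine transcripts, the share of Cxcl9, Cxcl10 and Cxcl11 rose 2.95-fold by group means, compared to 1.21-fold for the summed level. The summed FPKM of the 10 genes was 493, 479 and 598 in LLC alone and 560, 670 and 672 in LLC with BMSCs, so the totals overlapped. The overlap came only from LLC alone replicate 3 (598), which exceeded LLC with BMSCs replicate 1 (560). The 4 ELR genes made up 97.2% ± 0.139 (SD, n = 3) of that sum in LLC alone and 91.7% ± 0.331 (SD, n = 3) in LLC with BMSCs. Cxcl9, Cxcl10 and Cxcl11 together made up 2.78%, 2.95% and 2.68% in LLC alone and 8.62%, 8.15% and 8.02% in LLC with BMSCs, nearly all of it Cxcl10. The shares did not overlap between the groups. Cxcl1 alone still made up 73.4% to 76.2% in LLC with BMSCs, compared to 78.8% to 79.1% in LLC alone.

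**Figure D3:**
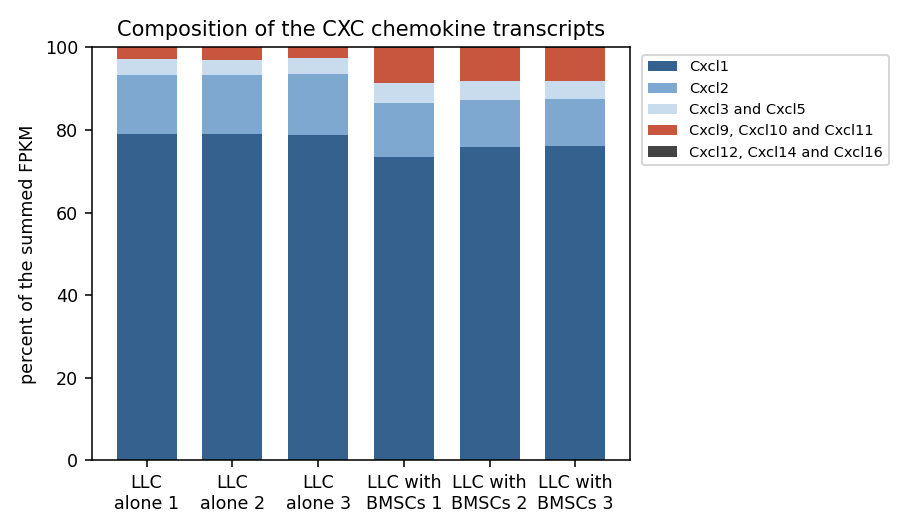
Percent of the summed FPKM of the 10 CXC chemokines taken by each class, 1 bar per library. The red section (Cxcl9, Cxcl10 and Cxcl11) grew from 2.68%–2.95% in LLC alone to 8.02%–8.62% in LLC with BMSCs, and the section for Cxcl12, Cxcl14 and Cxcl16 is too thin to be seen.

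Ratios within a library do not depend on library size, but ratios of genes of unlike length can carry the length trend. Cxcl1 exceeded Cxcl10 28.3 ± 1.31 times in LLC alone and 9.39 ± 0.536 times in LLC with BMSCs (SD, n = 3 each). Cxcl2 exceeded Cxcl10 5.16 ± 0.333 times and 1.49 ± 0.0683 times. Within the ELR class the ratio of Cxcl5 to Cxcl3 went from 1.06 ± 0.0487 to 1.23 ± 0.0330 and that of Cxcl1 to Cxcl2 from 5.48 ± 0.109 to 6.30 ± 0.628. Cxcl5 lies in a longer length bin than Cxcl1 and Cxcl3. The log2 fold changes of Cxcl5, Cxcl3 and Cxcl1 were 0.63, 0.41 and 0.18 in the main fit and 0.68, 0.61 and 0.39 with the length trend removed. The part of the trend in the ratios was not tested. The 4 ratios above, and those of Cxcl3 and of Cxcl5 to Cxcl1, did not overlap between the groups. An exact two-sided permutation test gives p = 0.1 for each of the 6 ratios (0.1 after adjustment), the smallest p that 3 libraries against 3 allow.

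The receptors and other genes of the pathway were taken from lists written out gene by gene, and the same share of 31.5% called higher and 31.3% called lower over all tested genes applies to them. Of the 5 other CXC ligands 2 were tested and both rose. Pf4, a platelet chemokine that lies in the Cxcl5 to Cxcl3 interval, had a log2 fold change of 2.91 (SE 0.42, edgeR adjusted p = 0.000631) but reached a mean of only 1.15 FPKM. With 1 to 5 counts in LLC alone, Pf4 passed the filter on low counts only through LLC with BMSCs. Ppbp, the platelet basic protein next to it, had a log2 fold change of 0.46 (SE 0.12, edgeR adjusted p = 0.0105), a call lost when the closest pair of libraries of each group was summed (edgeR adjusted p = 0.0590). Cxcl13 and Cxcl15 had at most 2 counts in a library, and Cxcl17 was not listed.

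Of the 8 CXC receptors 4 were tested, of which 2 rose, 1 fell and 1 did not pass. Ackr3, which binds and scavenges Cxcl11 and Cxcl12, was the only one above 1 FPKM, with 5.02, 5.03 and 5.51 FPKM in LLC alone and 12.3, 13.5 and 14.3 FPKM in LLC with BMSCs. Ackr3 did not overlap between the groups, and its log2 fold change was 1.34 (SE 0.080, edgeR adjusted p = 7.4e-06). Cxcr2, the receptor of the ELR chemokines, had 0.10, 0.17 and 0.18 FPKM in LLC alone and 0.28, 0.28 and 0.24 FPKM in LLC with BMSCs. Its log2 fold change was 0.80 (SE 0.25, edgeR adjusted p = 0.0223), a call lost in 5 of its 15 alternatives, among them DESeq2 (adjusted p = 0.0745) and leaving out LLC alone replicate 1 (edgeR adjusted p = 0.0657), LLC with BMSCs replicate 1 (0.0666) or LLC with BMSCs replicate 2 (0.0702).

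Cxcr3, the receptor of Cxcl9, Cxcl10 and Cxcl11, moved the opposite way to its ligands. Cxcr3 had 0.41, 0.50 and 0.41 FPKM in LLC alone and 0.23, 0.10 and 0.28 FPKM in LLC with BMSCs, with no overlap, and it fell by 1.10 on the log2 scale (SE 0.32, edgeR adjusted p = 0.0190). Cxcr3 had 29, 26 and 29 counts in LLC alone and 16, 7 and 19 in LLC with BMSCs. It passed the filter on low counts only through LLC alone. Without LLC alone replicate 2 the edgeR adjusted p of Cxcr3 was 0.0536. Cxcr5 did not pass (log2 fold change -0.34, edgeR adjusted p = 0.361). Cxcr4, the receptor of Cxcl12, had at most 9 counts and Cxcr6, the receptor of Cxcl16, at most 16 counts in a library, neither of them tested and both overlapping between the groups. Ackr1 had at most 1 count, and Cxcr1 was not listed.

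Among 5 proteases that trim or shed CXC ligands, 4 were tested and all 4 rose. Mmp9 and Mmp2, which cleave several CXC ligands, had log2 fold changes of 5.12 (SE 0.14, edgeR adjusted p = 2.43e-07) and 2.32 (SE 0.075, edgeR adjusted p = 4.52e-07). Adam17 rose by 0.60 (SE 0.068, edgeR adjusted p = 0.000178) and Adam10, which sheds Cxcl16, by 0.27 (SE 0.088, edgeR adjusted p = 0.0259) on the log2 scale. The call of Adam10 was lost in 6 of 17 alternatives, among them leaving out any of the 3 LLC with BMSCs libraries (edgeR adjusted p = 0.0515 to 0.0839), and its log2 fold change was 0.07 with the length trend removed (edgeR adjusted p = 0.225).

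Of 15 genes of the NF-kB inputs to the ELR chemokines, 14 were tested, 12 rose, 1 fell and 1 did not pass, and the median was 1.14 on the log2 scale. The cytokines Il1b, Il1a and Tnf had at most 3 counts in any LLC alone library and passed the filter on low counts only through LLC with BMSCs. Il1b, Il1a and Tnf were at least 189-fold, 134-fold and 26.5-fold higher in LLC with BMSCs. Among the pathway's own subunits and inhibitors, Tnfaip3 rose by 1.85, Nfkb2 by 1.53, Relb by 1.19, Rel by 1.15, Nfkb1 by 1.13, Nfkbia by 1.13 and Rela by 0.45 on the log2 scale. The receptor gene Il1r1 rose by 0.76, and Tnfrsf1a by 0.19 (SE 0.067, edgeR adjusted p = 0.0411), a call lost in 8 of 17 alternatives, among them leaving out any library but LLC alone replicate 3 (edgeR adjusted p = 0.0661 to 0.128) and the replicate block (edgeR adjusted p = 0.0639). Nfkbiz, an atypical nuclear member of the inhibitor family, was the 1 gene that fell (log2 fold change -0.64, SE 0.060, edgeR adjusted p = 6.7e-05). Il17ra did not pass (-0.09, edgeR adjusted p = 0.257), although it was lower without LLC alone replicate 3 (-0.13, edgeR adjusted p = 0.0213), with the length trend removed (-0.25, edgeR adjusted p = 0.000473) and with both together (-0.27, edgeR adjusted p = 0.000342), and Il17a had at most 1 count.

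All 6 tested genes of the interferon-gamma arm above Cxcl9, Cxcl10 and Cxcl11 rose, and the median was 0.92 on the log2 scale. The transcription factor Irf1 rose from 7.57–8.18 to 46.1–48.2 FPKM (log2 fold change 2.58, SE 0.061, edgeR adjusted p = 1.02e-07), and Irf8 by 2.31 on the log2 scale from at most 0.09 FPKM. Irf8, with 5 to 11 counts in LLC alone, passed the filter on low counts only through LLC with BMSCs. The receptor chains Ifngr2 and Ifngr1 rose by 1.14 and 0.65 on the log2 scale, and the kinases Jak2 and Jak1 by 0.70 and 0.27. The call of Jak1 (edgeR adjusted p = 0.0338) was lost when any 1 of the 3 LLC with BMSCs libraries was left out (edgeR adjusted p = 0.0735 to 0.0953) and with the length trend removed (log2 fold change 0.02, edgeR adjusted p = 0.617). The ligand gene Ifng itself had 0 counts in the 3 LLC alone libraries and 4, 1 and 0 counts in LLC with BMSCs, too few to test.

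**Figure D4:**
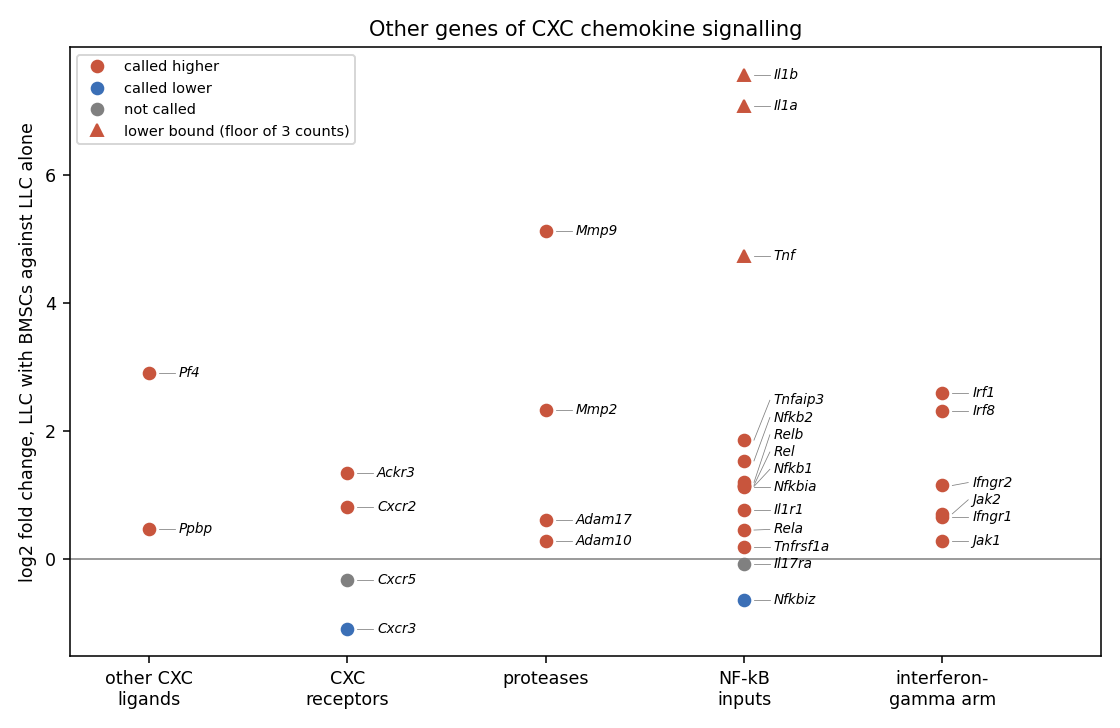
Log2 fold change, LLC with BMSCs against LLC alone, of each tested gene in the 5 lists of other CXC chemokine signalling genes (red called higher, blue called lower, grey not called, triangles lower bounds for genes at or under 3 counts in LLC alone). Cxcr3 (-1.10) and Nfkbiz (-0.64) were the 2 genes called lower, and the bound of Il1b was the highest point at 7.56.

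Markers of cells other than LLC moved between the groups as well, although the gate for red fluorescent protein should remove host cells and BMSCs. The shares of 31.5% called higher and 31.3% called lower over all tested genes apply to every marker list below. The leukocyte gene Ptprc rose from 0.0650–0.239 to 2.16–2.54 CPM (counts scaled to library size). With 3, 8 and 8 counts in LLC alone, Ptprc passed the filter on low counts only through LLC with BMSCs, so a call of lower was not open to it. The 8 neutrophil markers found in the files summed to 0.0650–0.269 CPM in LLC alone and 17.5–20.5 CPM in LLC with BMSCs. The 5 tested (S100a8, S100a9, Csf3r, Camp and Mpo) had at most 2 counts in any LLC alone library. They passed the filter on low counts only through LLC with BMSCs, so a call of lower was not open to them, and all 5 were called higher. S100a8 (0 to 2 counts compared to 254 to 302) and S100a9 (0 to 1 compared to 421 to 522) led. The defining neutrophil gene Ly6g was at or near 0 in both groups.

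The 9 macrophage markers summed to 23.5–28.5 CPM in LLC alone and 32.7–34.8 CPM in LLC with BMSCs, and of 6 tested 4 rose, Cd68 fell and Cd14 did not pass. Adgre1 had 0 counts in LLC alone and 60 to 79 in LLC with BMSCs, and like Itgam it passed the filter on low counts only through LLC with BMSCs. The complement genes C1qa, C1qb and C1qc had at most 3 counts. The 9 markers of BMSCs and fibroblasts summed to 268–325 and 676–703 CPM, and all 8 tested rose, among them Col1a1 from 2 to 4 counts to 477 to 586, while Thy1 was at or near 0. Col1a1, Dcn and Lum passed the filter only through LLC with BMSCs. The markers of T and NK cells, which Cxcl9, Cxcl10 and Cxcl11 attract, summed to 0.260–0.299 and 0.136–0.203 CPM, and 0 of them reached the test. The part of these other cells in the CXC chemokine changes was not tested.

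The sums of the remaining marker lists were as follows. Dendritic cell markers summed to 10.1–10.8 and 12.9–13.7 CPM (of 4 tested 2 rose and 1 fell), B cell markers to 0.0896–0.152 and 0.113–0.182 CPM (0 tested), endothelial markers to 0.687–0.867 and 0.935–1.08 CPM (1 tested, not called) and platelet markers to 1.56–1.80 and 2.17–2.31 CPM (1 tested, Itga2b, which rose). Keratinocyte markers were at 0 in LLC alone and at most 0.0227 CPM in LLC with BMSCs. Carcinoma markers summed to 157–177 and 189–197 CPM, and both tested ones rose. Krt8 was high throughout (90.3 to 102 FPKM and 108 to 113 FPKM) with a log2 fold change of 0.19 (SE 0.065, edgeR adjusted p = 0.0374). Krt18 was low, with 2, 4 and 8 counts in LLC alone and 41, 37 and 37 in LLC with BMSCs, and its log2 fold change was 2.91 (SE 0.34, edgeR adjusted p = 0.000221). Krt18 passed the filter on low counts only through LLC with BMSCs. Krt19, Epcam and Cdh1 were at or near 0, so of the 5 carcinoma markers only Krt8 was abundant in LLC alone.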

How the data were processed

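Sorted LLC cells were sequenced in 6 libraries, 3 per group, and the groups follow the sample labels. For genes and transcripts the authors deposited estimated counts, raw values that can be fractional, and FPKM values, which are scaled by transcript length and library total. According to the study's methods, RNA was extracted with TRIzol, enriched with oligo-dT and sequenced on the BGISEQ-500, whereas the labels name Illumina protocols. The submitters' processing notes name HISAT, StringTie, Cufflinks, GATK and build mm8 with no role, and use of strand is not given in the sources used here. A gene that a library did not list was taken as 0; the lowest FPKM listed was 0.01. Reads that match several genes may have been divided between them, which was not tested. The counts of Cxcl1 were whole numbers in all 6 libraries. Those of Cxcl2 and Cxcl3 were fractional in 1 library each (3321.01 and 501.99, LLC with BMSCs replicate 1).

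Counts were rounded and tested with edgeR 4.0.16 in R 4.3.3 (TMM scaling, default filter on low counts, quasi-likelihood test over the 6 libraries, Benjamini-Hochberg adjustment over 13353 genes, threshold 0.05). Standard errors and 95% intervals come from the test statistic. A gene at or under 3 counts in every library of a group got a bound against that floor of 3 counts per library. The scripts were tested on simulated data. The members, gene lists and marker lists were chosen with earlier results of these data known. All 10 members were named, with values per library where FPKM reached 1, and from the other lists every called gene could be named. Genes singled out among the marker lists were chosen after their values were seen. Alternatives were DESeq2 1.42.0, limma 3.58.1 on log2 FPKM (pseudocount 1 or 0.1, genes of 1 FPKM or more in 3 libraries), other scalings and filters, a stricter threshold, a replicate block, a loess correction for gene length, summing the closest pair of each group, and leaving out each library. Levels between genes were compared by FPKM only. A search for genes with a like pattern was not made, since 6 libraries in 2 groups give little beyond the group difference. Promoter windows are RefSeq's on GRCm38.p6, and gene positions those of GRCm38. Neither was set against positions of the files, which give none.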

Additional observations from a re-analysis of the deposited data

How the results depend on the processing

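The counts of alternatives per gene, here and above, leave out the stricter threshold (adjusted p under 0.001, change of 1 or more on the log2 scale). Cxcl5 and Cxcl10 stayed upregulated in 17 of 17 other alternatives. Cxcl9 and Cxcl11 did so in 14 of 14, and Cxcl16 in 15 of 15, that tested them. At the stricter threshold Cxcl9, Cxcl10 and Cxcl11 were called, and Cxcl3, Cxcl5 and Cxcl16 were not. Cxcl3 was called in 13 of 17 and lost when the closest pair of each group was summed (log2 fold change 0.33, edgeR adjusted p = 0.110) or 1 of 3 libraries was left out, with 0.31 to 0.52 over the libraries left out. The count of 6 called higher became 3 with limma on log2(FPKM + 1) and on log2(FPKM + 0.1), since 5 members passed that filter, and 3 at an adjusted p under 0.001 with a change of 1 or more on the log2 scale (background 6.81%). It was 8 without a filter on low counts and 8 with the length trend removed, and 5 to 7 with 1 library left out. With at least 10 counts required in every library, which leaves out Cxcl9 and Cxcl11, it was 4 of 6 tested members. No alternative called a member lower.

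Cxcl1 was called without LLC alone replicate 3 (0.30, range over the libraries left out 0.12 to 0.30), with the length trend removed (0.39) and with both together (0.39, edgeR adjusted p = 0.000585), an alternative chosen after seeing the data. Cxcl2 changed sign to 0.0081 and 0.0083 under limma, 0.11 without LLC alone replicate 3 (range -0.093 to 0.11), 0.17 with the length trend removed and 0.20 with both (edgeR adjusted p = 0.0026). Jak1 changed sign with both (-0.012, edgeR adjusted p = 0.793). Removing the length trend moved the calls over all genes from 4210 higher and 4183 lower to 3999 and 5358. The cause of these shifts was not tested.

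The replicate numbers do not pair the libraries (correlations of deviations 0.08, -0.11 and 0.06). With the replicate block 6 members were called higher, Cxcl3 had a log2 fold change of 0.41, and 4161 genes were called higher and 4058 lower. Depth limits Cxcl12 and Cxcl14, for which 0 counts in LLC alone allow up to 3 per library.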

Other observations

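The files divide Ppbp, the platelet basic protein, among 3 transcripts, of which 1 is annotated in RefSeq and 2 were assembled from reads by the authors' pipeline. The annotated transcript had 1.03, 1.26 and 1.43 FPKM in LLC alone and 2.43, 2.40 and 2.39 FPKM in LLC with BMSCs, with no overlap. The longer assembled transcript had 0.90, 0.54 and 1.02 FPKM in LLC alone and 0.86, 0.61 and 0.70 FPKM in LLC with BMSCs, and the shorter had 0.61, 0.53 and 0.36 and then 0.40, 0.57 and 0.73 FPKM. Both assembled transcripts overlapped between the groups. The share of the annotated transcript in the gene's FPKM was 40.6% to 54.1% in LLC alone and 62.6% to 67.0% in LLC with BMSCs. No test was made on the transcripts.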
